A study of Mus musculus with 10 samples.

Results

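Complement is a cascade of plasma and membrane proteins that tags microbes and cell debris and recruits immune cells. The classical pathway starts when C1q binds a target and C4 and C2 are cleaved, and the alternative pathway uses complement factor B. Both build convertases that cleave C3, and regulators such as factor I, CD55 and the C1 inhibitor hold these steps in check on host surfaces. The liver makes most of the plasma proteins, while gut and airway epithelium, fibroblasts and macrophages make several of them locally. The genes described are 9 components and regulators, listed by symbol and found through the platform's gene annotation: Cfi, Cd55, Serping1, C1qa, C1qb, C2, Cfb, C4b and C3. Of 45037 probe sets on the arrays, 15 carried one of these symbols, 13 of them with no second symbol. Of the 9 genes, 7 had a probe set of their own and all 7 passed the filter on low values. They are among 13644 genes tested. C4b was read only through a probe set annotated to both C4a and C4b, and C3 was not analysed here.

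The arrays held total RNA of F2 mice of a B6 by BALB cross, 10 samples in all. The titles name 8 cystic fibrosis (CF) knockouts and 2 CF controls. The first letter of a code is H for 5 knockouts, L for 3 and D for the controls, and the labels do not spell it out, although the series is titled for mice of variable weight. Neither the knockout allele nor any age is given in the sources at hand. Each code also holds the letter M (6 samples) or F (4 samples), and the sample numbers fall in a lower range (3 knockouts and both controls) or an upper range (5 knockouts).

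Cftr, the epithelial chloride channel that the knockout disrupts, read 19.7 to 35.4 in the knockouts and 131 to 137 in the controls. As source and description of the RNA the labels give the lung (whole right lung), while the series title gives the intestine. Epithelial genes of the small intestine were bright on every array, Lgals4 at 6595 to 7301 and Fabp2 at 3217 to 7345. Of the lung epithelium list, Sftpc, surfactant protein C of the lung alveolus, ranged from 1099 to 4169 and Scgb1a1 from 2011 to 5610. Foxj1 of that list read 14.5 to 21.4. Knockout H replicates 2 and 5 stood highest on the lung epithelium list, with mean log2 deviations of 1.06 and 0.74 from the 10-array mean. Of 10 liver genes 3 passed the filter. The albumin gene Alb did not, at 15.8 to 21.9 in controls and 10.2 to 15.1 in knockouts, close to the array medians of 18.4 to 18.8. All levels below are linear intensities as deposited, and differences are on the scale of log2(intensity + 16).

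In the knockouts the protease regulator Cfi rose, Cd55 showed the largest estimated difference without passing the test, and no component of the classical or alternative pathway passed. Knockout versus control called 1 of the 7 genes, Cfi, against a background of 4.31% of all genes tested, 1.52% higher and 2.79% lower (limma, Benjamini-Hochberg adjusted p under 0.05, covariates number range and letter). In 2 of the 7, Cfi and Cd55, all 8 knockouts lay above both controls, and in 0 of the 7 did all lie below. The same held for 10% of all genes in the higher direction and 11.7% in the lower one. Estimates were higher for 3 genes and lower for 4, with a median of -0.22 against 0 over all genes. Because both controls carry numbers of the lower range, the fitted differences rest mainly on the 3 knockouts and 2 controls there. The other arrays enter through the letter covariate and the estimate of the spread.

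**Figure D1:**
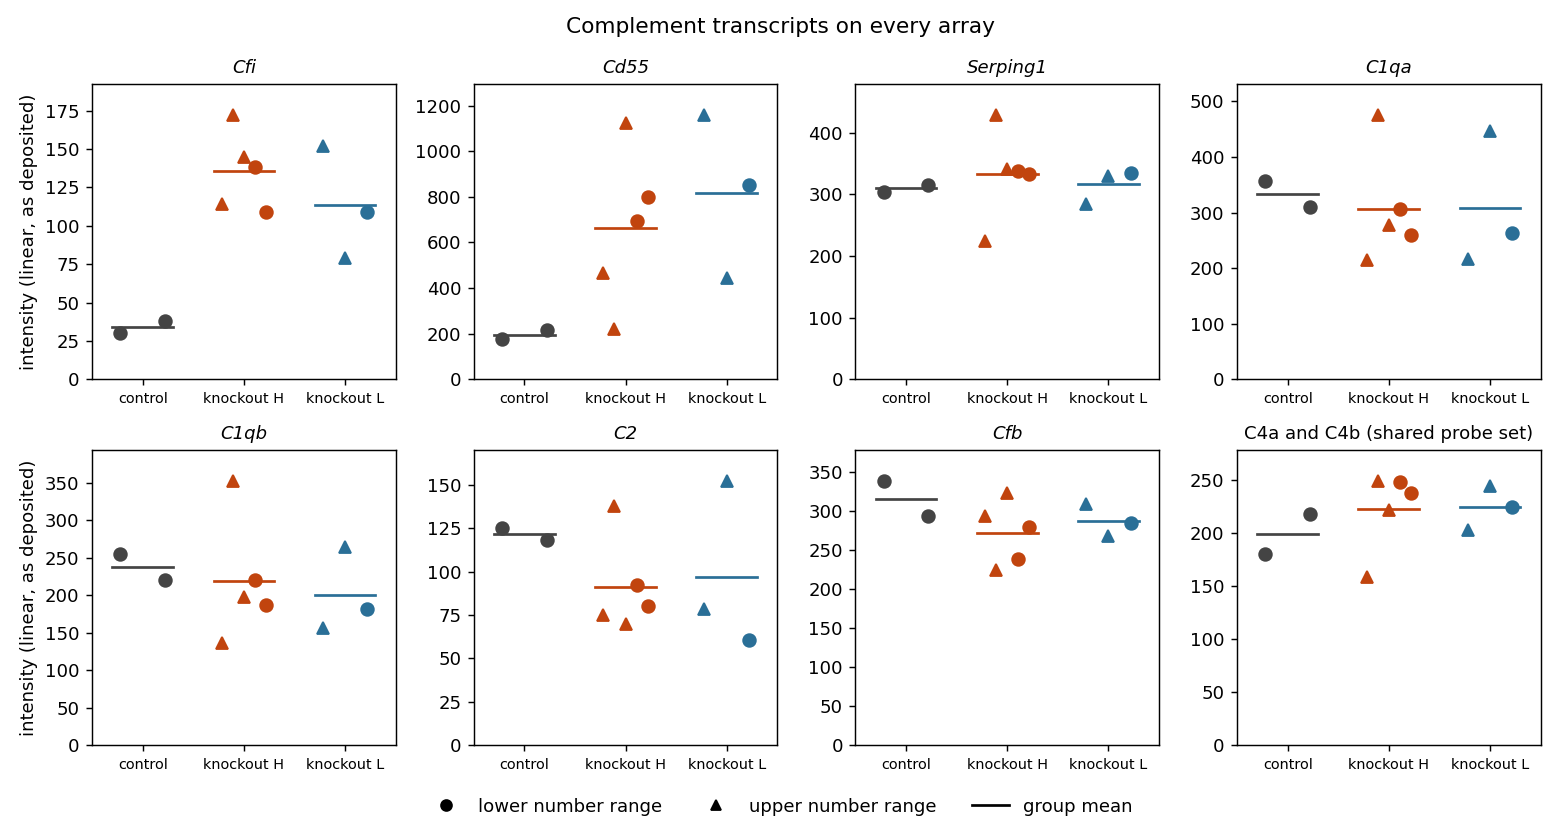
Intensity of each complement transcript on every array, on linear axes that start at 0. Points are single arrays grouped as control, knockout H and knockout L, circles mark the lower and triangles the upper number range, and the bar is the group mean. Cfi and Cd55 are the panels in which both controls lie below every knockout.

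Cfi encodes factor I, the serine protease that cleaves C3b and C4b together with cofactors and so ends convertase formation. Its intensity was 30.3 and 37.9 in control replicates 1 and 2. In knockout H replicates 1 to 5 it was 114, 172, 145, 138 and 109. In knockout L replicates 1 to 3 it was 152, 79.0 and 109. The lowest knockout, knockout L replicate 2, lay well above the higher control, and the groups did not overlap. The means were 127 ± 29.7 (SD, n = 8) in knockouts and 34.1 ± 5.39 (n = 2) in controls, and the log2 difference was 1.48 ± 0.22 (SE; limma adjusted p = 0.0147). The call was lost without control replicate 1 (log2 difference 1.55, adjusted p = 0.157) and without control replicate 2 (1.42, 0.0991), fits in which the remaining control is assumed to vary like the other groups. Over the lower number range alone Cfi differed by 1.43 (limma adjusted p = 0.00426), and without the 2 arrays highest in lung transcripts by 1.72 (0.0127).

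Set apart by code, knockout H exceeded control by 1.51 ± 0.24 for Cfi (limma adjusted p = 0.0312, background 2.43% of genes called, 0.652% higher and 1.77% lower). Knockout L exceeded control by 1.38 ± 0.28 without passing (0.0832, background 0.344%, 0.0513% higher and 0.293% lower). Both comparisons use the same 2 controls. The difference between H and L itself was 0.14 ± 0.21, with a 95% interval from -0.35 to 0.62. The H call was lost without either control, without knockout H replicate 4 (1.30, adjusted p = 0.148), and without knockout L replicate 2 (1.43, 0.0515) or 3 (1.48, 0.0771).

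Cd55, also called decay-accelerating factor, is a membrane protein that takes apart C3 convertases on the cell's own surface. RefSeq (GRCm38.p6) lists Cd55b and the gene Cd55os beside it on the chromosome. Of the 9 genes, promoter sequences of 3 were at hand, those of Cd55, C1qb and C3. The bases before the start of Cd55, the gene with the largest difference, and of C1qb, which followed its partner chain C1qa, are shown here from RefSeq, 5′ to 3′ on the minus strand. The Cd55 stretch is chr1:130462745-130462994 and that of C1qb chr4:136886201-136886450. Capitals mark matches to a GC box (GGGCGG) or a cyclic AMP response core (TGACG), searched on both strands.
Cd55: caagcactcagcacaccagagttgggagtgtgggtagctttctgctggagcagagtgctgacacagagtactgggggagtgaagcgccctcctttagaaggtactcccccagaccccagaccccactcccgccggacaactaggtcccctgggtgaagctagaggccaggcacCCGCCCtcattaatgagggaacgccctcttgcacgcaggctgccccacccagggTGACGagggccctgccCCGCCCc
C1qb: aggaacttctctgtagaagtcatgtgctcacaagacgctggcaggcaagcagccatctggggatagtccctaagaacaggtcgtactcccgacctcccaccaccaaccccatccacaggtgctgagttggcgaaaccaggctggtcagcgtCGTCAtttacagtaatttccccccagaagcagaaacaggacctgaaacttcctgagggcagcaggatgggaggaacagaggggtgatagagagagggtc

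The Cd55 stretch held 2 GC boxes and 1 cyclic AMP response core, and the C1qb stretch 1 such core. Among 32851 promoters of the same 250 bases, 32.7% held a GC box and 17.8% that core. No match was found in either for a hypoxia response core (ACGTG), a STAT gamma-activated site (TTCNNNGAA), an interferon-stimulated response element, a C/EBP palindrome (TTGCNNAA), an E-box (CACGTG, which contains the hypoxia core), a Cdx site (TTTATG) or the NF-kappaB consensus. These occurred in 16.6%, 7.02%, 2.98%, 9.56%, 6.02%, 10.8% and 7.25% of promoters. GC made up 64% of the bases for Cd55 and 55.2% for C1qb, against a median of 52.4%.

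On the brightest of its probe sets, the one used for the gene, Cd55 read 175 and 217 in the controls. Knockout H replicates 1 to 5 read 467, 221, 1123, 694 and 800. Knockout L replicates 1 to 3 read 1157, 445 and 852. Every knockout lay above both controls, but knockout H replicate 2 only just, and the knockouts spread 5.24-fold between lowest and highest. The means were 720 ± 331 (n = 8) and 196 ± 30.0 (n = 2), and the log2 difference of 1.96 ± 0.60 did not pass (limma adjusted p = 0.106; 95% interval 0.61 to 3.31, unadjusted). Knockout H replicate 2, the array with the lowest Cd55 among knockouts, was also the one highest on the lung epithelium list, and without it Cd55 passed, at 1.99 (limma adjusted p = 0.0231). It also passed over the lower number range alone, with 3 knockouts and 2 controls (1.94 ± 0.12, adjusted p = 0.00169), and without knockout H replicates 2 and 5 (2.23, 0.0487). All these settings leave out the lowest knockout, and the lower range also leaves out the next lowest (445 and 467), which narrows the spread. Cd55 did not pass without knockout L replicate 3 (1.85, limma adjusted p = 0.226), knockout H replicate 5 (2.09, 0.227) or any other knockout. The difference was 1.95 without control replicate 1 and 1.97 without control replicate 2.

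The other probe sets of Cd55 gave the same order of controls and knockouts. The middle probe set read 37.2 and 40.1 in controls and from 45.6 (knockout H replicate 2) to 210 (knockout H replicate 3) in knockouts. Its difference was 1.69 ± 0.54 (limma adjusted p = 0.132 in the fit of all probe sets). The dimmest probe set read 15.4 and 17.2 in controls, near the array medians, and from 21.0 to 92.1 in knockouts, a difference of 1.38 ± 0.38 (adjusted p = 0.0896). On all 3, knockout H replicates 1 and 2 and knockout L replicate 2 were the lowest knockouts. A probe set shared with Cd55b read 8.35 to 13.1 on all arrays, under the filter. The labels do not say which strand or part of the transcript each probe set reads.

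**Figure D2:**
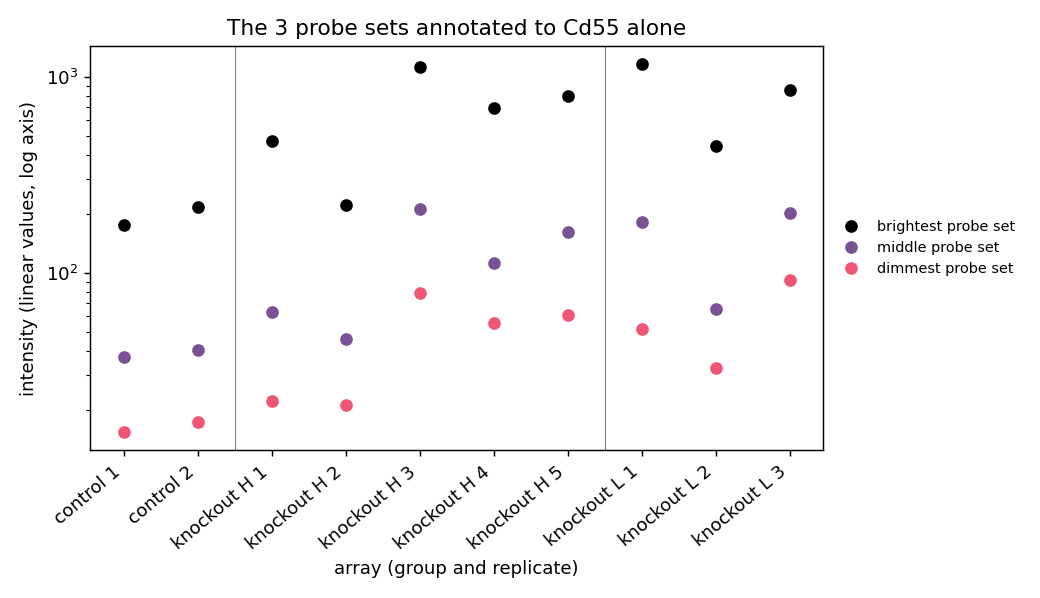
Intensities of the 3 probe sets annotated to Cd55 alone, on a log axis, for the 2 controls, 5 knockout H and 3 knockout L arrays. Each point is 1 array, and on each probe set both controls lie below all 8 knockouts, with knockout H replicates 1 and 2 and knockout L replicate 2 nearest to them.

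Knockout H differed from control by 1.78 ± 0.58 for Cd55 (limma adjusted p = 0.159) and knockout L by 2.5 ± 0.69 (0.148). H minus L was -0.72 ± 0.52, with an interval from -1.91 to 0.48. Knockout L versus control called 0 of the 7 genes in limma, with 2 at an unadjusted p under 0.05, Cfi and Cd55, as had 14.4% of all genes. Without knockout H replicate 3 it called Cd55 (2.72, adjusted p = 0.0471).

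Serping1 encodes the C1 inhibitor, which inactivates the proteases C1r and C1s of the classical pathway. It read 304 and 315 in the controls. Knockout H replicates 1 to 5 read 224, 428, 341, 337 and 333, and knockout L replicates 1 to 3 read 285, 329 and 335. Knockouts lay on both sides of the controls. The difference was 0.11 ± 0.21, with a 95% interval from -0.36 to 0.58 (limma adjusted p = 0.842). The genes most like Serping1 over the 10 arrays were Rexo4 (r = 0.942), Maip1 (0.935) and Ercc6l2 (0.917).

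C1qa and C1qb encode the A and B chains of C1q, the recognition molecule of the classical pathway, which tissue macrophages make. C1qa read 357 and 310 in the controls. It read 214, 475, 277, 307 and 260 in knockout H replicates 1 to 5 and 216, 447 and 264 in knockout L replicates 1 to 3. Knockout H replicate 2 and knockout L replicate 2 lay above both controls and the other 6 knockouts below both. The means of 307 ± 99.8 (n = 8) and 334 ± 33.0 (n = 2) differed by -0.31 ± 0.30 on the log2 scale (limma adjusted p = 0.643, interval -0.99 to 0.37). C1qb read 255 and 220 in the controls. Knockout H replicates 1 to 5 read 137, 352, 198, 220 and 187 and knockout L replicates 1 to 3 read 156, 265 and 182. The same 2 knockouts were the highest. Its difference was -0.29 ± 0.31 (limma adjusted p = 0.683), and those of its other 2 probe sets were -0.29 ± 0.25 and -0.39 ± 0.29.

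Within the 8 knockouts C1qa and C1qb moved together (Pearson r = 0.968, exact permutation p = 4.96e-05, adjusted p = 0.00104 over 21 pairs of the 7 genes). Spearman's rho was 0.976 (exact permutation p = 0.000397, adjusted 0.00834). Without the 2 arrays farthest from the median of C1qa, knockout H replicate 2 and knockout L replicate 2, r was 0.973. C1qc, the gene of the C chain and a neighbour of both on the chromosome, was the tested gene most like C1qb over the 10 arrays (r = 0.988), followed by Selplg, a selectin ligand gene (0.974), and Rnase6 (0.969). Those most like C1qa were Ms4a6b, a membrane protein gene of leukocytes (0.979), Apoe, the apolipoprotein E gene (0.972), and Gimap7, a GTPase gene (0.965). Genes named for their likeness are the highest of all tested genes and carry no test.

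Of 13 macrophage markers tested, 1 rose (Cd14, 0.70) and 1 fell (Mertk, -0.96) in knockouts, with a median of -0.06. Of all genes 1.52% rose and 2.79% fell. The mean log2 deviation of the list was 0.04 and -0.03 in controls and -0.17 to 0.37 in knockouts. It was highest in knockout H replicate 2 (0.37) and knockout L replicate 2 (0.17), the arrays highest in C1qa and C1qb. It was lowest in knockout H replicate 1 (-0.17) and knockout L replicate 1 (-0.16), which were lowest in both C1q genes. This was not particular to macrophage markers. Knockout H replicate 2 was also highest on the lung epithelium (1.06), endothelium (0.48), B and plasma cell (0.44) and neutrophil (0.40) lists. Knockout L replicate 2 was highest on the T and NK cell (0.67) and interferon response (0.74) lists. The part of macrophage or other cell content in the C1q values was not tested. In whole tissue fewer cells of a type and less RNA per cell cannot be told apart.

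**Figure D3:**
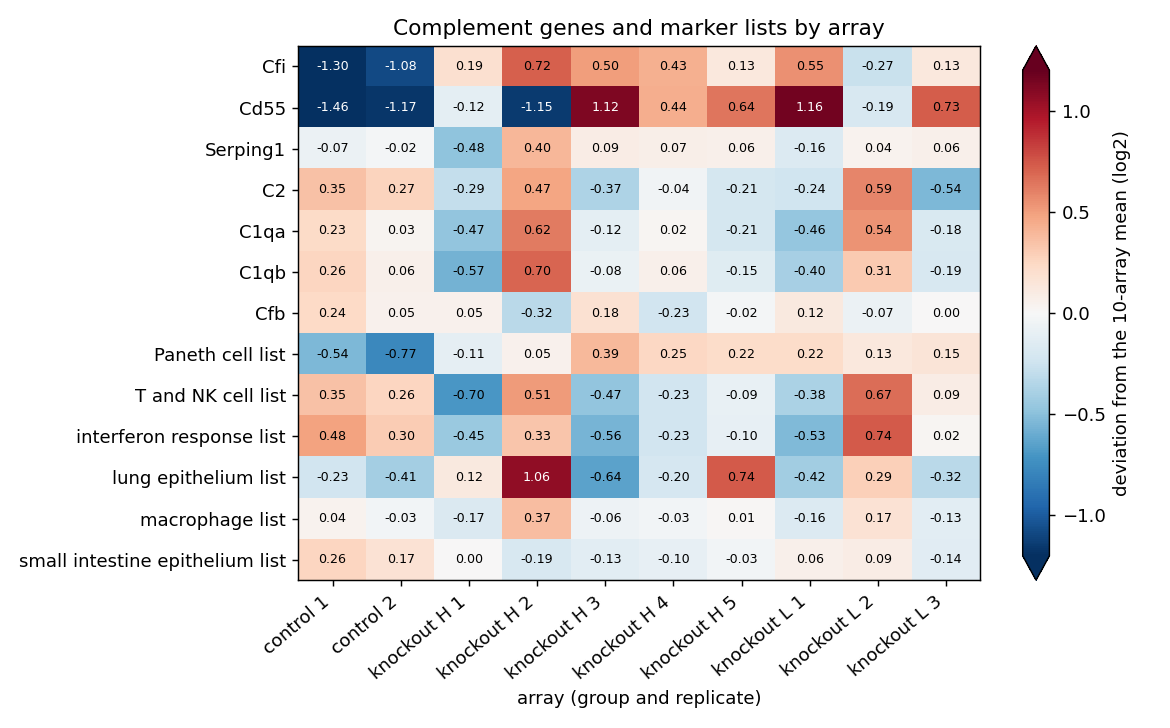
Log2 deviations from the 10-array mean for the 7 genes (upper rows) and mean deviations of 6 marker lists (lower rows), with red above and blue below the mean. Knockout H replicate 2 and knockout L replicate 2 stand out as high in C2, C1qa and C1qb, and the interferon and T and NK lists are high there too.

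C2 supplies the protease of the classical C3 convertase. On the brightest of its 3 probe sets it read 125 and 118 in the controls. Knockout H replicates 1 to 5 read 75, 138, 70, 92.0 and 80.4, and knockout L replicates 1 to 3 read 78.2, 152 and 60.7. As with C1q, knockout H replicate 2 and knockout L replicate 2 lay above both controls and the other 6 knockouts below both. The difference of -0.62 ± 0.28 did not pass (limma adjusted p = 0.276, interval -1.26 to 0.03). The other 2 probe sets gave -0.87 ± 0.39 (adjusted p = 0.282 in the fit of all probe sets) and -0.89 ± 0.42 (0.316). Over the lower range alone C2 differed by -0.57 (limma adjusted p = 0.0708).

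Interferon response genes were, like C2, higher in both controls, knockout H replicate 2 and knockout L replicate 2 than in the other 6 knockouts. Of 15 genes tested, 0 were higher and 1 lower past the threshold (Irf7, -0.91), against 1.52% and 2.79% of all genes. Their list had a median of -0.48. It stood at 0.48 and 0.30 in the controls, 0.74 in knockout L replicate 2 and 0.33 in knockout H replicate 2, and between -0.56 and 0.02 in the other 6 knockouts. T and NK cell markers stood at 0.35 and 0.26 in controls, 0.67 and 0.51 in these 2 knockouts, and between -0.70 and 0.09 in the others. Within those 6 the order was not that of C2. Knockout L replicate 3 was the lowest in C2 (60.7) but the highest of the 6 on both lists (0.02 and 0.09). What these cells or signals add to the C2 values was not tested. The genes most like C2 over the 10 arrays were Twf2, an actin-binding protein gene (r = 0.970), Dnase1, a nuclease gene (0.951), and Psme1, a subunit gene of the proteasome activator (0.946).

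Cfb encodes factor B, the counterpart of C2 in the alternative pathway, and lies next to C2 with a single microRNA gene between them. It read 338 and 293 in the controls. The 8 knockouts ran from 224 (knockout H replicate 2) through a median of 282 to 323 (knockout H replicate 3). The groups overlapped, and the difference was -0.22 ± 0.15 (limma adjusted p = 0.475, interval -0.57 to 0.12). Cfb was lowest in knockout H replicate 2, where C2 was among the highest. Within the 8 knockouts the correlation of C2 with Cfb was negative without passing (r = -0.66, exact permutation p = 0.0675, adjusted 0.123; rho = -0.762, exact permutation p = 0.0368, adjusted 0.162). It was -0.586 without knockout L replicate 2 and knockout H replicate 2. The genes most like Cfb over the 10 arrays were Mgat3, a glycosyltransferase gene (r = 0.938), Hint3 (0.898) and Cyth2 (0.891).

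The probe set shared by C4a and C4b, a pair of near-identical genes, cannot give C4b alone. C4b is cleaved by the classical and lectin pathways to seed their convertase. The shared probe set read 180 and 218 in controls, from 159 (knockout H replicate 1) to 249 (knockout H replicate 2) in knockout H, and 203, 245 and 225 in knockout L. The groups overlapped, and the difference was 0.23 ± 0.17 (limma adjusted p = 0.547 in a fit with shared probe sets included).

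**Figure D4:**
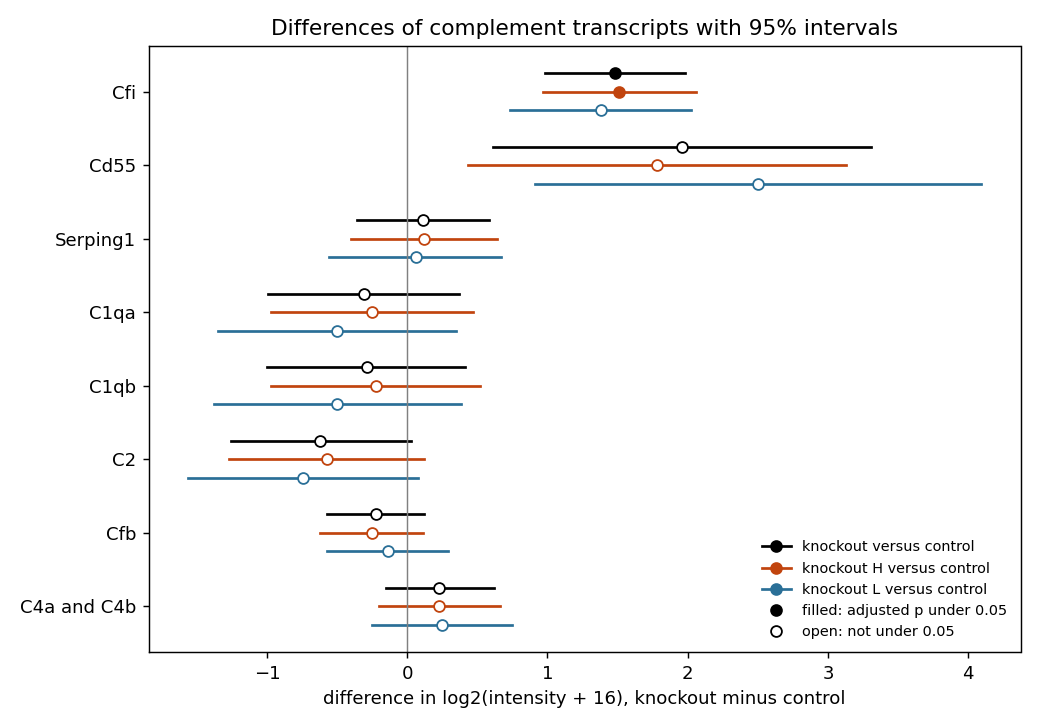
Fitted log2 differences from control (points) with 95% intervals that are not adjusted for multiple tests (lines), for all knockouts, knockout H and knockout L, which share the same 2 controls. Filled points passed the limma threshold, which holds for Cfi in all knockouts and in knockout H.

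Of the 21 pairs among the 7 genes within the knockouts, 1 passed after adjustment, C1qa with C1qb, and 10 had an unadjusted p under 0.05. Cd55 ran opposite to C2 (r = -0.751, exact permutation p = 0.0337, adjusted 0.0885; rho = -0.69, exact permutation p = 0.0694, adjusted 0.162). Without knockout H replicate 2 and knockout L replicate 2, the 2 arrays farthest from the median of Cd55, r was -0.219. Leaving out the same 2 arrays took r of C2 with C1qa from 0.88 to 0.201 and with C1qb from 0.806 to 0.25. Leaving out extreme arrays narrows the range and can itself lower r, so these values do not tell how far a relation rests on them. Cfi and Cd55, the 2 genes higher in all knockouts, were not correlated detectably among them (r = -0.00964, exact permutation p = 0.982, adjusted 0.982; rho = 0.119, exact permutation p = 0.793, adjusted 0.928). Without knockout L replicate 2 and knockout H replicate 2, r was 0.587. Knockout H replicate 2 was the highest knockout for Cfi and the lowest for Cd55.

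The tested genes most like Cd55 over the 10 arrays were Pla2g4c, a cytosolic phospholipase gene (r = 0.986), AA467197 (0.980), and Egln3, an oxygen-sensing hydroxylase (0.976). They were chosen over all 10 arrays, controls included, so a difference like that of Cd55 follows from the choice and adds nothing to it. In the fit they differed by 2.18, 1.42 and 1.99 without passing (limma adjusted p = 0.0846, 0.123 and 0.0779). The genes most like Cfi were Iars, an isoleucyl-tRNA synthetase gene (r = 0.974), Fut8, a fucosyltransferase gene (0.961), and Lyar, a nucleolar protein gene (0.961). Chosen in the same way, they differed by 0.35, 0.88 and 0.48, of which Fut8 and Lyar passed. The Paneth cell list stood at -0.54 and -0.77 in controls and -0.11 to 0.39 in knockouts. Of its 5 genes tested 1 was higher past the threshold, against 1.52% of all genes. The small intestine epithelium list stood at 0.26 and 0.17 in controls and -0.19 to 0.09 in knockouts. Of its 11 genes tested 3 were lower, against 2.79% of all genes. The Paneth gene that rose was Pla2g2a, a secreted phospholipase gene (2.06, limma adjusted p = 0.00528). The epithelial genes that fell were Fabp2, a fatty acid-binding protein gene (-0.93), Cdx2, an intestinal transcription factor gene (-0.85), and Vil1, the villin gene of the brush border (-0.51). The groups did not overlap on either list, with knockouts higher on the Paneth list, as for Cfi, and lower on the epithelial one. Among single genes the groups were likewise apart in 10% in the higher and 11.7% in the lower direction. Estimates on the Paneth list were higher for 4 genes and lower for 1, the lysozyme gene Lyz1 (-0.35). It read 8896 to 9807 in controls and 5677 to 9662 in knockouts. On the epithelial list 8 estimates were lower and 3 higher, those of Apoa4 (0.65), Cdx1 (0.07) and Lgals4 (0.02).

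Liver and neutrophil lists also separated the groups in the direction of Cfi, but narrowly, and not every gene on them did. The liver list stood at -0.38 and -0.57 in controls and -0.35 to 0.71 in knockouts, with a median difference of 1. Of its 3 genes tested limma called 0, with 1 at an unadjusted p under 0.05, as had 19.4% of all genes. Tat, the tyrosine aminotransferase gene, read 58.5 and 59.9 in controls and 94.9 to 306 in knockouts (1.52 ± 0.37, limma adjusted p = 0.0526). Apoh, a plasma apolipoprotein gene, read 25.5 and 28.0 in controls and 19.5 to 152 in knockouts (1.0 ± 0.60, 0.417), and Ttr, the transthyretin gene, differed by -0.12 ± 0.15. Alb, under the filter, went the other way, at 15.8 to 21.9 in controls and 10.2 to 15.1 in knockouts. The neutrophil list lay between -0.24 and -0.19 in controls and between -0.15 and 0.40 in knockouts. Of its 6 genes tested limma called 0, with 2 at an unadjusted p under 0.05, against the same 19.4% of all genes. S100a8 and S100a9 of this list, a pair of calprotectin genes, read 12.6 to 15.3 in controls and 19 to 106 in knockouts. These control values lay under the array medians of 18.4 to 18.8. Csf3r, Elane, Cxcr2 and Camp of the same list differed by 0.14, 0, 0.02 and -0.04.

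Fibroblast markers had 10 of 10 estimates higher, with a median of 0.31. Of them 1 rose, Lum, the lumican gene (0.95, limma adjusted p = 0.0415), against 1.52% of all genes. Their list overlapped between groups, at -0.30 to -0.11 in controls and -0.21 to 0.22 in knockouts. Of 16 NF-kappaB and acute phase genes, which also overlapped as a list, 1 rose, Nfkbiz (0.95, limma adjusted p = 0.0215), and 1 fell, Relb (-0.77, 0.0168). The shares over all genes were 1.52% and 2.79%. The part of any of these lists in the difference of Cfi or Cd55 was not tested.

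None of the other complement genes passed. Of 53 listed by pathway, 28 passed the filter, and limma called 0 of 28 in knockout versus control, with 0 at an unadjusted p under 0.05, against 19.4% of all genes. Estimates were higher for 14 and lower for 14, with a median of 0.03. The smallest p belonged to Vtn, the terminal pathway inhibitor vitronectin (-0.15 ± 0.07, adjusted p = 0.268), which read near the array medians. So did several others on every array, among them Fcnb (13.8 to 19.7), Colec11 (12.9 to 19.8) and C8g (10 to 17.1). For such dim genes the absence of a call says little about a change. Cr1l, the rodent membrane regulator Crry, read 328 and 380 in controls and 380 to 492 in knockouts (0.18 ± 0.09, adjusted p = 0.304). C4bp, the plasma C4b-binding protein, whose gene lies near Cd55, read 16 and 20.2 in controls and 20.7 to 60.9 in knockouts (0.69 ± 0.35, adjusted p = 0.327). C5ar1, a receptor for the C5a fragment, differed by 0.15 ± 0.08 (0.374). Of the 7 terminal pathway genes 3 passed the filter, and 0 were called, with 0 at an unadjusted p under 0.05.

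Knockout H and knockout L did not differ detectably. Limma called 0 of the 7 genes and 0 of 13644 genes (0% of the background), with 0 and 303 (2.22% of all genes) at an unadjusted p under 0.05, and the H and L arrays overlapped for all 7. Over all genes, H lay wholly above L for 0.901% and wholly below for 0.652%. The estimates of H minus L ran from -0.72 for Cd55 to 0.28 for C1qb. M versus F called 0 of the 7 (background 0.022%, 0.0147% higher and 0.00733% lower), with 0 at an unadjusted p under 0.05 against 4.83% of all genes. Its largest estimates were 0.61 ± 0.51 for Cd55 and -0.47 ± 0.27 for C1qa. The upper versus lower number range within knockouts also called 0 of the 7 in limma (background 0.3%, 0.132% higher and 0.169% lower), with 0 at an unadjusted p under 0.05 against 10.2% of all genes. Its largest estimates were -0.77 ± 0.52 for Cd55 and 0.47 ± 0.27 for C2.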

How the data were processed

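The authors deposited 1 linear intensity per probe set and array and the labels give no account of how probes were summarized or the arrays scaled. Array medians (18.4 to 18.8) and 75th percentiles (within 1.07-fold) were alike, so no further normalization was applied. Arrays carry no read depth, and their number, above all the 2 controls, limits the precision. After 64 control probe sets had been set aside from 45101, 34945 had 1 gene symbol, 932 several and 9160 none. Of the single symbols 34741 were matched by gene identifier to the RefSeq list of GRCm38.p6. Each gene was read from the probe set with the highest mean, and genes at or under the 25th percentile (an intensity of 13.6) were left out, which left 13644 of 18193. Values were taken as log2(intensity + 16), which understates changes of dim genes.

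Comparisons were fitted with limma 3.58.1 in R 4.3.3 (lmFit, eBayes), with the letter and the number range as covariates, and p was adjusted by Benjamini-Hochberg across the whole table. Knockout versus control used 2 groups, the other comparisons 3 groups with a common spread. The script was tested on simulated data. Exact permutation tests over the 8 knockouts served for pairs of genes. The rule named all listed genes, the other complement genes past the threshold or else the 4 with the smallest p, at most 3 markers of a list, at most 3 genes of the class III region and the 3 genes most like each listed gene. Further marker genes, those past the threshold among them, were named after their values were seen. The members, the lists and the rule were chosen with earlier results of these data known. Replicates are numbered in accession order. Nothing beyond the titles' own numbers says that they are separate animals, so each p reflects the spread among these arrays alone, which may be technical.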

Additional observations from a re-analysis of the deposited data

Results flagged for a closer look

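The probe set shared by C4a and C4b had 1 array apart from the rest. Knockout H replicate 1 read 159, and its gap to the next array took up 0.741 of the range of the 5 knockout H arrays and 0.541 of that of all 8 knockouts, above Dixon's critical value both times. These were 2 of 16 sets of arrays examined over 8 probe sets. Chance flags about 1 set in 20, and the sets overlap. The same array was the lowest knockout for Serping1 (224), C1qa (214) and C1qb (137).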

How the results depend on the processing

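The direction of all 7 genes in knockout versus control was the same under every alternative run, from 0.93 to 1.83 for Cfi, 1.64 to 2.23 for Cd55, -0.88 to -0.39 for C2, -0.24 to -0.18 for Cfb, -0.52 to -0.16 for C1qa, -0.46 to -0.20 for C1qb and 0.06 to 0.13 for Serping1, and also with any 1 array left out. The cause of the shifts that follow was not tested. Knockout versus control called 2 of the 7 genes over the lower range alone and without the pair of arrays richest in lung markers (knockout H replicates 2 and 5), a setting chosen after seeing the data, and 0 to 2 with 1 array left out. Over all genes it called 1366 without covariates, 1033 over the lower range and 0 to 813 with 1 array left out, against 588. Knockout H versus control called 0 to 1 of the 7 with 1 array left out. Over all genes it called 155 with pseudocount 1, 878 without covariates, 99 without the 2 arrays and 0 to 433 with 1 left out, against 331. Knockout L versus control called 1 of the 7 without covariates (Cfi, 1.33, limma adjusted p = 0.0163) and 0 to 1 with 1 array left out. Over all genes, against 47, it called 4 with pseudocount 1, 5 without the filter, 3 with the filter at the 50th percentile, 9 with all probe sets fitted, 543 without covariates, 173 with the range as the only covariate and 0 to 224 with 1 array left out. M versus F called 5 genes with group as the only covariate, against 3. The number range called 26 with pseudocount 1, 94 with all probe sets, 150 with group as the only covariate, 1 without the 2 arrays and 0 to 44 with 1 left out, against 41. In H minus L, estimates near 0 changed sign, C2 to -0.03 without covariates and -0.01 with the range alone, and Serping1 to -0.06 without the 2 arrays. With 1 array left out H minus L ran from -0.06 to 0.30 for C2, -0.06 to 0.21 for Serping1, -0.01 to 0.40 for C1qa and -0.05 to 0.41 for Cfi. L minus control ran from -0.05 to 0.14 for Serping1 and -0.27 to 0.13 for Cfb. No paired analysis was possible because the replicates carry no numbers shared between groups.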

Other observations

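C2, Cfb and the C4 genes lie in the class III region of the major histocompatibility complex, and 8 of 10 listed genes around them were tested. Of these 1 fell in knockouts, Neu1, the lysosomal sialidase gene a few genes away from C2, against 2.79% of all genes called lower in knockout versus control. It read 863 and 949 in the controls and 278 to 470 in the knockouts, with no overlap, as in 11.7% of all genes in that direction (log2 difference -1.10 ± 0.17, limma adjusted p = 0.0161). Knockout H versus control also called Neu1 (-1.11 ± 0.19, limma adjusted p = 0.0351), while knockout L versus control did not (-1.06 ± 0.22, 0.0886). The difference between H and L was -0.06 ± 0.17. Nelfe, a subunit gene of the negative elongation factor next to Cfb, read 209 and 224 in controls and 150 to 190 in knockouts (-0.32 ± 0.09, adjusted p = 0.087). Ehmt2, a histone methyltransferase gene, read 328 and 348 in controls and 271 to 321 in knockouts (-0.18 ± 0.07, 0.229). The median over the 8 genes was -0.10.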
